A study of Homo sapiens with 6 samples.

Results

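ABC drug efflux transporters are membrane pumps that use ATP to move drugs and metabolites out of cells. The 8 genes described here were chosen by symbol: ABCB1, ABCC1, ABCC2, ABCC3, ABCC4, ABCC5, ABCC10 and ABCG2. All 8 of 8 were measured, among 18417 genes, and each had 1 probe set that named it alone, so no choice between probe sets was needed and no low-signal filter removed a member. RNA came from A549 cells, an established human line grown from a lung adenocarcinoma. The study had 2 groups of stable A549 cells with 3 arrays each, a control (C) and cells labelled H2AX knockdown (P1). Both groups were kept without serum overnight and then received VP-16 for 48 h, so the drug is common to all 6 arrays and its own effect cannot be read here. The labels used here do not say how the knockdown was made or how many clones stand behind each stable line. If each group is 1 line, p-values measure the spread between experiments of that line.

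VP-16 is etoposide, a topoisomerase II poison that has to stay in the cell to break DNA. ABCB1 (P-glycoprotein) and the multidrug resistance proteins ABCC1, ABCC2 and ABCC3 are known to carry etoposide or its conjugates outwards. The other members carry mainly other cargo, with overlap: nucleotide analogues and cyclic nucleotides for ABCC4 and ABCC5, taxanes for ABCC10, and topotecan and mitoxantrone for ABCG2. The question for these genes is whether cells carrying the knockdown label differ from control cells in transporter transcripts while both are exposed to a drug that such pumps can export. Transcript signals do not measure pump activity or drug content.

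Promoter sequence is shown for the members with the largest differences in signal, ABCB1 on the higher side and ABCC5 and ABCC4 on the lower side, so that the regulatory DNA of these genes can be read beside their values. Each line gives the 250 bases before a RefSeq start site (GRCh38.p14), 5′ to 3′ on the strand of the gene, which is the minus strand for all of them. Capitals mark matches on either strand to a CCAAT box (CCAAT), a GC box (GGGCGG) or the core of the antioxidant response element that NRF2 binds (TGACNNNGC). The windows lie at chr7:87600885-87601134 for ABCB1, chr3:184017885-184018134 for ABCC5 and chr13:95301452-95301701 for ABCC4.
ABCB1: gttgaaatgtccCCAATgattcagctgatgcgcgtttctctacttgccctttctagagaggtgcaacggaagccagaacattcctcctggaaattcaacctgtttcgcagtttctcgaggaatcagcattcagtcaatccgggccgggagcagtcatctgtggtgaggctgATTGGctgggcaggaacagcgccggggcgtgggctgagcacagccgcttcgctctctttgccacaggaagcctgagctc
ABCC5: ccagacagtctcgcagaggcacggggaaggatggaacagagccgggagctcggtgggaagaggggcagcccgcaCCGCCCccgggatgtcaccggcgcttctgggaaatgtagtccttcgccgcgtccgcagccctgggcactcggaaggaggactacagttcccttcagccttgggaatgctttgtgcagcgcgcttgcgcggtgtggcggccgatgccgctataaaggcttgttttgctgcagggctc
ABCC4: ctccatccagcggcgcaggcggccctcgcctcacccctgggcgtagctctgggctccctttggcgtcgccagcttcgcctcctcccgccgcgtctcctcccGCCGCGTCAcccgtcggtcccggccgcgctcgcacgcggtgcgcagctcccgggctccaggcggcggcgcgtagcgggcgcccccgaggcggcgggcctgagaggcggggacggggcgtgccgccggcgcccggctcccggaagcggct

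The ABCB1 window held 2 CCAAT matches and no match to the other motifs, the ABCC5 window 1 GC box, and the ABCC4 window 1 match to the antioxidant response core. No matches overlapped in these windows. Among 35116 windows of the same length, 32.0% held a CCAAT match, 42.6% a GC box and 10.9% the antioxidant response core. Over all members, 12 windows of 6 genes were found: ABCG2 had 5, ABCB1 and ABCC10 had 2 each, and ABCC2, ABCC4 and ABCC5 had 1 each. ABCC1 and ABCC3 had no entry. Of the 12 windows, 1 held CCAAT, 4 the GC box and 2 the antioxidant response core, and several windows of ABCG2 overlap each other. ABCB1 has a second RefSeq start, far upstream, whose window held none of these motifs. These matches describe letters only.

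The targeted gene did not show the labelled knockdown. H2AX (probe set 7952179) had log2 signals of 5.11, 5.27 and 5.26 in control replicates 1, 2 and 3, and 5.28, 5.17 and 5.49 in the corresponding arrays labelled H2AX knockdown. The groups overlapped, and the difference was 0.10 (95% interval −0.25 to 0.45, limma adjusted p = 0.823). All differences below are therefore between arrays by their label, labelled minus control, and not with a measured loss of H2AX. Of the epithelial markers, KRT8 read 9.44 to 10.0 and CDH1 5.23 to 5.71 over the 6 arrays, whereas EPCAM read 2.28 to 2.72. The summed log2 signal of 7 epithelial markers ran from 42.4 to 43.6 in controls and from 42.0 to 43.5 in knockdown-labelled arrays. The same sum ran from 18.8 to 20.5 and from 20.3 to 22.9 for 6 fibroblast markers, from 19.6 to 19.9 and from 19.3 to 20.3 for 5 blood and immune markers, and from 11.5 to 12.2 and from 11.6 to 12.4 for 4 endothelial markers. Such a sum hides opposite directions. Of the blood and immune markers, CD68 was lower in every knockdown-labelled array than in every control (−0.46, limma adjusted p = 0.364). Such separation on the lower side held for 9.82% of all genes. CD68 lay at the 99.4th percentile of mean signal, among the brightest 20% of genes, of which 85.3% were below 0. The other 4 blood and immune markers were above 0. All 6 fibroblast markers were above 0 in their difference, and none passed the threshold. DCN and LUM, with the largest differences (0.46 and 0.47), were among the dimmest 20% of genes, of which 18.3% were below 0. COL1A2, COL3A1 and PDGFRB lay in the middle 20%, with 51.3% below 0, and COL1A1 in the brightest 20%. The markers were not tested against these shares. An array signal has no zero, so no marker could be called absent, and the part of other cells in the results was not tested. In bulk RNA, fewer cells of a type and less RNA per cell cannot be told apart.

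None of the 8 transporters differed between the groups past the threshold (limma, Benjamini-Hochberg adjusted p under 0.05 over all genes). Their adjusted p ran from 0.397 for ABCC5 to 0.933 for ABCC1. The threshold was passed by 6 of 18417 genes, or 0.0326% (0.0271% lower and 0.00543% higher), so a count of 0 among 8 genes is near that background. At an unadjusted p under 0.05 there was 1 member, ABCC5, against 12.2% of all genes (8.38% lower and 3.78% higher). The groups did not overlap for 1 member, ABCG2, against 17.0% of all genes (9.82% lower and 7.17% higher). The log2 difference was below 0 for 6 members and above 0 for 2, with a median of −0.16. The median of all genes was −0.01, and 51.5% of them were below 0. In the brightest of 5 equal bins of genes by mean signal, which held 3 members, 85.3% of all genes were below 0. The next bin, with ABCC4 and ABCC10, had 66.1% below 0 and a median of −0.10. That share was 51.3% in the middle bin (ABCC5 and ABCG2) and 36.1% in the bin of ABCB1. The members were not tested against these bins. Quantile normalization gave a member median of −0.029, cyclic loess one of −0.0099, and leaving out knockdown-labelled replicate 1 one of −0.088.

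**Figure D1:**
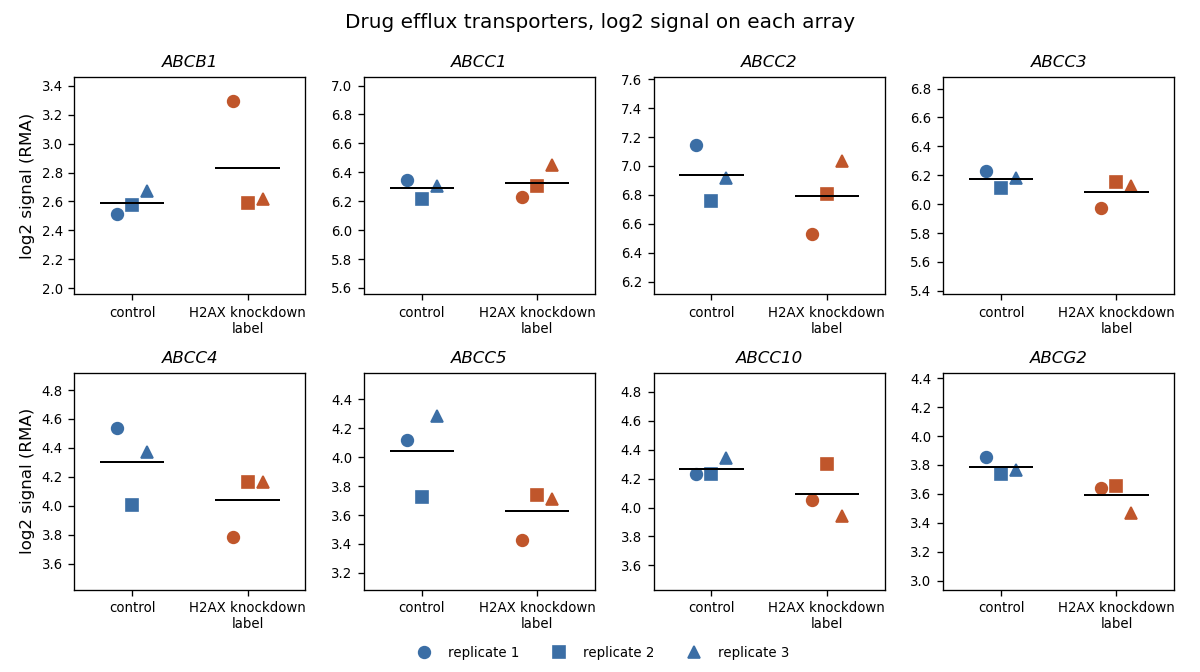
Log2 signal (RMA) of each transporter on each of the 6 arrays, control in blue and arrays labelled H2AX knockdown in orange. Symbols give the replicate number, horizontal lines the group means, and every panel spans the same number of log2 units. The groups overlap in every panel except that of ABCG2, and the ABCB1 signal of knockdown-labelled replicate 1 stands above the other arrays.

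P-glycoprotein, the product of ABCB1, is the broadest of these pumps and the classic cause of cross-resistance to natural-product drugs. Its probe set (8140782) read 2.51, 2.57 and 2.67 in control replicates 1, 2 and 3, against 3.29, 2.59 and 2.61 in the same order for the knockdown-labelled group. Knockdown-labelled replicate 1 was the only high array, and the other arrays of that group lay inside the control range. The group means were 2.59 ± 0.08 and 2.83 ± 0.40 (SD, n = 3 each), with a difference of 0.25 (95% interval −0.18 to 0.67, limma adjusted p = 0.626). Without that array the difference was 0.02. ABCB1 lay at the 22.3rd percentile of mean signal over all genes, and RMA compresses differences at dim signals. The interval therefore bounds the signal of this probe set and not the transcript.

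ABCC1, ABCC2 and ABCC3 encode the multidrug resistance proteins that export glutathione, glucuronide and sulphate conjugates, and etoposide among unconjugated drugs. ABCC1 (probe set 7993478) read 6.34, 6.22 and 6.31 in control replicates 1, 2 and 3, and 6.23, 6.30 and 6.45 in the knockdown-labelled ones. Those values interleave, with means of 6.29 ± 0.07 and 6.33 ± 0.11 (SD, n = 3 each) and a difference of 0.04 (95% interval −0.30 to 0.37, limma adjusted p = 0.933). As a change in signal, that interval runs from −18.6% to 29.6%.

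ABCC2 is an apical pump, known from the bile canaliculus. Its probe set (7929779) read 7.14, 6.76 and 6.92 in the controls, and 6.53, 6.80 and 7.04 in the knockdown-labelled arrays. Only knockdown-labelled replicate 1 lay below the control range. The means were 6.94 ± 0.19 and 6.79 ± 0.26 (SD, n = 3 each), and the difference was −0.15 (95% interval −0.54 to 0.24, limma adjusted p = 0.757), or −0.02 without that array. It ran from −0.27 to −0.02 with each array left out. Quantile normalization turned the value to 0.085 and cyclic loess to 0.12.

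ABCC3 is a basolateral pump that carries glucuronides, including that of etoposide. Its probe set (8008454) read 6.23, 6.11 and 6.18 in the controls, and 5.97, 6.15 and 6.12 in the knockdown-labelled arrays. Again replicate 1 of the knockdown-labelled group was the lowest array, and the other arrays of that group lay within the control range. The difference of −0.09 had the narrowest interval of the members, from −0.42 to 0.24 (limma adjusted p = 0.834), or from −25.4% to 18.3% in signal. It ran from −0.12 to −0.04 with each array left out. Its sign turned under both normalizations, with 0.13 by quantiles and 0.16 by cyclic loess.

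These 3 genes lay in the brightest of 5 equal bins of genes by mean signal, with the means of ABCC1, ABCC2 and ABCC3 at the 94.4th, 96.9th and 93.3rd percentile. In that bin, the median log2 difference of 3684 genes was −0.25 in the deposited values, −0.067 with quantile and −0.034 with cyclic loess normalization. ABCC1, at 0.04 in the deposited values, read 0.27 and 0.29 under these normalizations (limma adjusted p = 0.644 and 0.61). The direction of ABCC2 and ABCC3 thus depended on the normalization, and no setting gave a call for any of them.

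**Figure D2:**
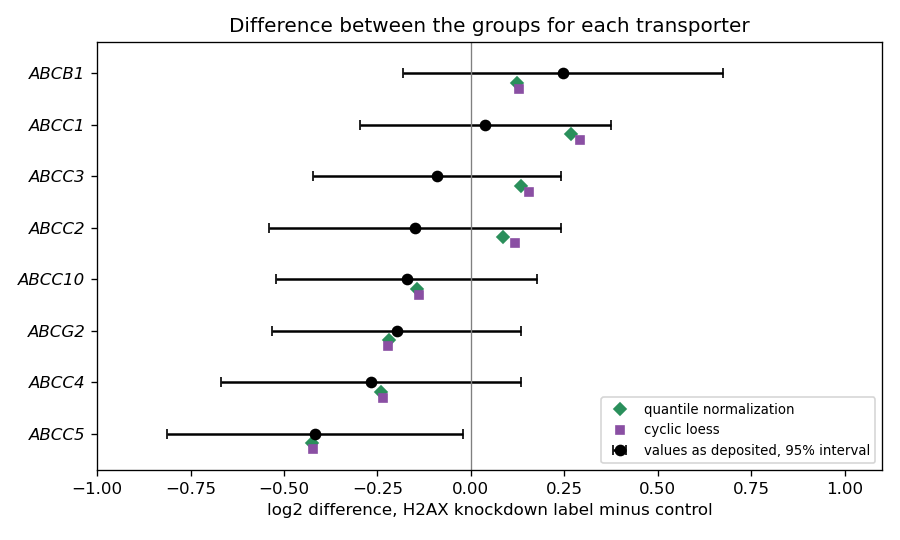
Log2 difference between the groups (arrays labelled H2AX knockdown minus control) for each transporter, with its 95% interval in limma (black), and the same difference after quantile normalization (green) and cyclic loess (purple). All intervals except that of ABCC5 include 0, and ABCC2 and ABCC3 change sign under both normalizations.

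ABCC5 had the largest difference of the members. It encodes MRP5, an exporter of cyclic nucleotides and nucleotide analogues. Its probe set (8092418) read 4.12, 3.73 and 4.28 in control replicates 1, 2 and 3, against 3.43, 3.74 and 3.71 in the same order for the knockdown-labelled group. Control replicate 2 lay at the level of the knockdown-labelled arrays, so the groups overlapped. The means were 4.04 ± 0.29 and 3.63 ± 0.17 (SD, n = 3 each), with a difference of −0.42 (95% interval −0.81 to −0.02) and a limma adjusted p of 0.397. By unadjusted p it ranked 1894th of 18417 genes. Leaving out control replicate 2 gave −0.57, and leaving out control replicate 3 gave −0.30. Both normalizations left it at −0.42.

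ABCC4 encodes MRP4, which exports cyclic AMP, prostaglandins and nucleotide analogues. Its probe set (7972297) read 4.53, 4.01 and 4.37 in the controls, and 3.78, 4.16 and 4.16 in the knockdown-labelled arrays. The order of arrays resembled that of ABCC5, with control replicate 2 low and knockdown-labelled replicate 1 the lowest. The difference was −0.27 (95% interval −0.67 to 0.13, limma adjusted p = 0.567), from means of 4.30 ± 0.27 and 4.04 ± 0.22 (SD, n = 3 each). Leaving out control replicate 2 gave −0.42, leaving out control replicate 1 gave −0.15, and leaving out knockdown-labelled replicate 1 gave −0.14.

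ABCC10 encodes MRP7, a pump for taxanes and vinca alkaloids. Its probe set (8119801) read 4.23, 4.23 and 4.34 in the controls, and 4.05, 4.30 and 3.94 in the knockdown-labelled arrays. The controls were tightly grouped, and the second knockdown-labelled array lay among them. The difference was −0.17 (95% interval −0.52 to 0.18, limma adjusted p = 0.68). It was −0.27 without knockdown-labelled replicate 2 and −0.09 without replicate 3 of that group.

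ABCG2, the breast cancer resistance protein, is built as a shorter protein that works as a dimer and marks side population cells by dye efflux. Its probe set (8101675) read 3.85, 3.74 and 3.77 in the controls, and 3.64, 3.66 and 3.47 in the knockdown-labelled arrays. Every knockdown-labelled array lay below every control, by a small margin. The means were 3.79 ± 0.06 and 3.59 ± 0.10 (SD, n = 3 each), with a difference of −0.20 (95% interval −0.53 to 0.14, limma adjusted p = 0.614). Both normalizations gave −0.22.

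**Figure D3:**
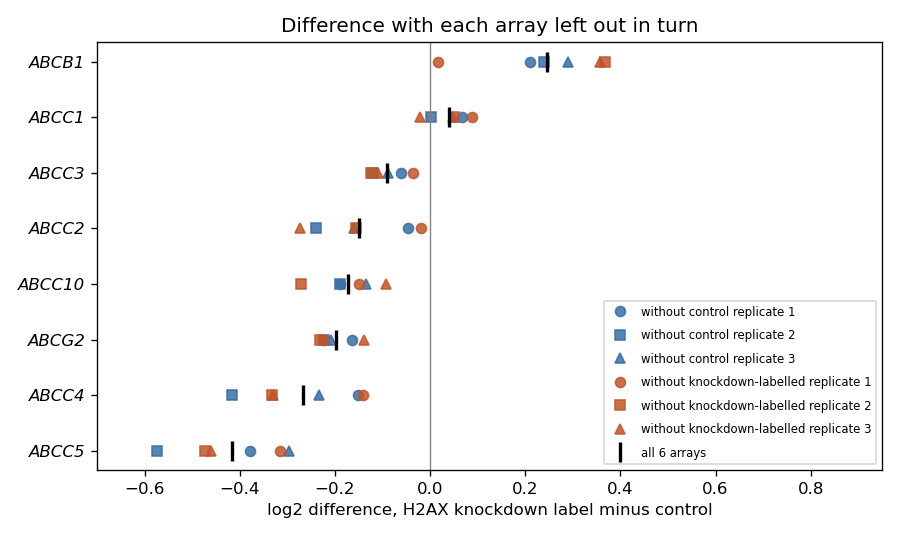
Log2 difference of each transporter with each array left out in turn (blue for control, orange for knockdown-labelled arrays, symbols for the replicate number), and with all 6 arrays (black bars). Leaving out knockdown-labelled replicate 1 brings ABCB1 and ABCC2 next to 0, and the values of ABCC5 stay between −0.57 and −0.30.

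Within the family, the extreme values came mostly from 2 arrays. Knockdown-labelled replicate 1 was the lowest array for 4 members (ABCC2, ABCC3, ABCC4 and ABCC5) and the highest for ABCB1. Over all genes it was the lowest array for 28.4% and the highest for 25.2%. Control replicate 1 was the highest array for 4 members (ABCC2, ABCC3, ABCC4 and ABCG2) and the lowest for ABCB1, against 25.9% and 21.3% of all genes. Knockdown-labelled replicate 2 was neither the highest nor the lowest array for any member. As a median over the 8 members, the distance from the control mean was 0.06, −0.07 and 0.04 in control replicates 1, 2 and 3. For the knockdown-labelled arrays it was −0.21, −0.08 and −0.10, in the same order. The SD of all probe sets was 1.60 in knockdown-labelled replicate 1, 1.86 in control replicate 1 and 1.71 to 1.79 in the others. The part of this difference between arrays in the member values was not tested.

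Profiles most like those of ABCC5 and ABCB1 were looked up over the 6 arrays, by the root mean square distance between log2 values after centring each gene on its own mean. The nearest to ABCC5 were H3-5 (0.0403), WIPI2 (0.0479) and PLIN3 (0.0508), where ABCC5 itself varied by 0.284 about its mean. Nearest to ABCB1, which varied by 0.266, were GDF5-AS1 (0.035), ANO5 (0.0367) and PNLIPRP3 (0.0441). None of these 6 genes passed the threshold. These are descriptions over 6 arrays, looked up among 18417 genes, with no test.

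The rest of the ABC family gave no call either. It includes lipid exporters, peptide transporters, peroxisomal and mitochondrial members and the channel CFTR, and 37 of 40 listed genes were measured. None passed the threshold (limma). At an unadjusted p under 0.05 there were 1 lower and 3 higher, where 8.38% of all genes were lower and 3.78% higher. The groups did not overlap for 2 genes on the lower side and 5 on the higher, against 9.82% and 7.17% of all genes. The median difference was 0.01. ABCA1, the cholesterol and phospholipid exporter that loads apolipoprotein A-I, read 3.71, 3.70 and 3.76 in the controls and 3.29, 3.21 and 3.32 in the knockdown-labelled arrays. Its groups were well separated and its replicates close, with a difference of −0.45 and a limma adjusted p of 0.312. ABCA6 (0.44), ABCB4 (0.39) and ABCA8 (0.34) were the members of this list with the next smallest p. Each was higher in every knockdown-labelled array than in every control. All 3 were dim, with control means of 1.62, 1.65 and 1.82, among the dimmest 20% of genes, whose median difference was 0.15. Under quantile normalization ABCA6, ABCB4 and ABCA8 were at 0.26, 0.20 and 0.15, and under cyclic loess at 0.24, 0.19 and 0.15, with no unadjusted p under 0.05. ABCB4, the phosphatidylcholine floppase of bile, is the closest relative of ABCB1 and lies beside it in the genome, so cross-hybridisation between their probes was not tested.

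Regulators of the pumps and their membrane partners held no call among 13 of 17 listed genes measured (limma), with 1 at an unadjusted p under 0.05, against 12.2% of all genes. Their median was −0.10, and 11 of 13, or 84.6%, were below 0. Of the 13 genes 11 lay in the brightest bin, where 85.3% of all genes were below 0 with a median of −0.25. The gene at an unadjusted p under 0.05 was NFE2L2, which encodes NRF2, an activator of several ABCC genes whose inhibitor KEAP1 is mutated in A549. NFE2L2 read 6.41, 6.08 and 6.11 in the controls and 5.80, 5.78 and 5.73 in the knockdown-labelled arrays. The groups did not overlap, and the difference of −0.43 had a limma adjusted p of 0.35. It was the only gene of this list without overlap, against 9.82% of all genes lower and 7.17% higher. Quantile normalization gave −0.21 and cyclic loess −0.19, with no unadjusted p under 0.05 in either. HIF1A, the hypoxia factor, was at −0.38 (adjusted p = 0.434), MSN, which encodes moesin and anchors membrane proteins to actin, at −0.38 (0.481), and YBX1, a Y-box protein that binds the CCAAT box of ABCB1, at −0.26 (0.545). The groups overlapped for these 3 genes. Quantile normalization brought HIF1A, MSN and YBX1 to −0.16, −0.19 and −0.085, and cyclic loess to −0.11, −0.14 and −0.024. Leaving out knockdown-labelled replicate 1 gave −0.13 for MSN and −0.15 for YBX1. Leaving out control replicate 1 gave −0.24 for HIF1A and −0.17 for YBX1.

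Enzymes of oxidation, glutathione synthesis and conjugation make the substrates of the ABCC pumps. Of 30 listed genes 26 were measured, and none passed the threshold (limma). At an unadjusted p under 0.05 there were 3 lower and 2 higher, where 8.38% of all genes were lower and 3.78% higher. The groups did not overlap for 4 genes on the lower side and 3 on the higher, against 9.82% and 7.17% of all genes. The median of the list was −0.10. GCLC, the catalytic subunit of the rate-limiting enzyme of glutathione synthesis, read 5.83, 5.20 and 5.51 in the controls and 4.91, 4.71 and 4.60 in the knockdown-labelled arrays. Each labelled array lay below each control, and the difference was −0.77 (adjusted p = 0.224). MGST2 and MGST1, membrane-bound glutathione transferases, were at −0.65 (adjusted p = 0.28) and −0.49 (0.367), also with no overlap. SULT1E1, the oestrogen sulphotransferase, was at 0.43 (0.349), again with no overlap, from a dim control mean of 1.33. MGST1 was at −0.28 by quantile normalization, −0.23 by cyclic loess and −0.30 without control replicate 1, and SULT1E1 at 0.22 and 0.20 under the same normalizations. Under both normalizations MGST1 and SULT1E1 no longer had an unadjusted p under 0.05 (limma). GCLC and MGST2 were each at −0.62 under both normalizations, and kept one. With array weights, GCLC (adjusted p = 0.027) and MGST2 (adjusted p = 0.0411) passed the threshold in limma, and no transporter did. In that setting 191 of 18417 genes passed it, against 6 without weights. Control replicates 1, 2 and 3 had weights of 0.82, 0.60 and 5.03, so the control side rested mostly on replicate 3. The knockdown-labelled arrays had 0.41, 1.22 and 0.81, in the same order.

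Uptake carriers, MATE exporters and copper pumps, which work beside the ABC pumps on drug entry and exit, held no call among 27 of 30 listed genes measured (limma). At an unadjusted p under 0.05 there were 2 in each direction, where 8.38% of all genes were lower and 3.78% higher. The groups did not overlap for 1 gene on the lower side and 3 on the higher, against 9.82% and 7.17% of all genes. The median of the list was 0.06. SLC22A5, the carnitine transporter OCTN2, read 5.41, 5.08 and 5.13 in the controls and 4.11, 4.72 and 4.98 in the knockdown-labelled arrays. These groups did not overlap, although the third labelled array came close to the controls, and the difference was −0.60 (adjusted p = 0.327), or −0.36 without knockdown-labelled replicate 1. Its relative SLC22A4, or OCTN1, was at −0.49 (adjusted p = 0.381) with overlap, and at −0.28 without control replicate 1. SLCO4C1, an organic anion carrier, was at 0.40 with overlap, and SLC47A2, the exporter MATE2, at 0.35 without it (adjusted p = 0.394 for each). Both were dim, with control means of 2.11 and 2.46. In their bins, the dimmest and the next of 5, 18.3% and 36.1% of all genes were below 0. Quantile normalization and cyclic loess brought SLCO4C1 to 0.25 with either and SLC47A2 to 0.22 and 0.23. Neither then had an unadjusted p under 0.05 (limma), whereas SLC22A5 and SLC22A4 did. The mean of all probe sets of SLCO4C1 gave 0.27.

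**Figure D4:**
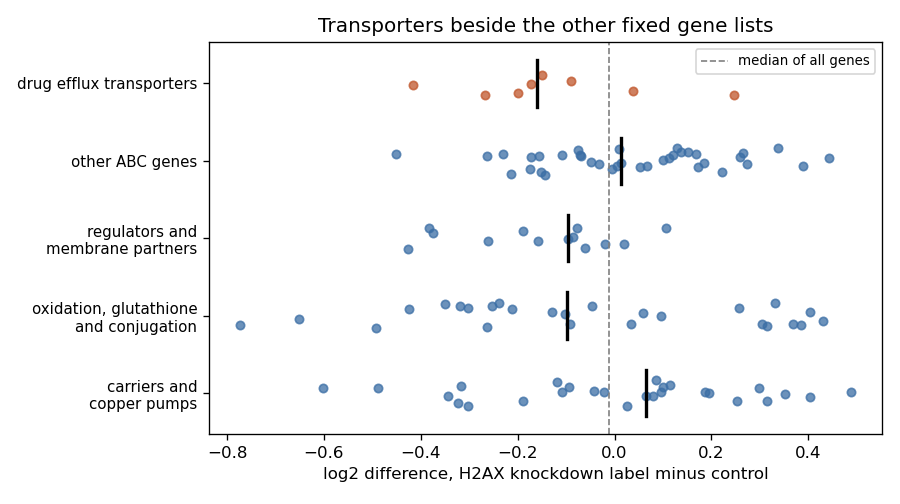
Log2 difference (arrays labelled H2AX knockdown minus control) of every measured gene in each list, with the list's median as a black bar and the median of all 18417 genes as a dashed line. The transporters lie between −0.42 and 0.25, within the range of each list of enzymes and carriers, and no gene shown passed the threshold.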

How the data were processed

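RNA from 6 samples was measured on Affymetrix arrays, from biotinylated cRNA per the labels' protocols. The authors deposited a log2 signal for each of 33297 probe sets, by RMA, per the submitters' processing notes (version, build and settings not given in the sources used here). That these signals are log2 was taken from their range, 0.611 to 13.2. They hold no measure of background, and the number of arrays limits the precision. A table of platform annotation named the probe sets: 19460 had 1 gene, 1754 several and 12083 none. For each of 18417 genes the brightest single-gene probe set was kept, with no filter.

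Groups came from the titles. limma 3.58.1 in R 4.3.3 (lmFit, then eBayes) gave 2-sided tests with no covariate, and p-values were adjusted by Benjamini-Hochberg over every gene, at 0.05. In simulated arrays with independent noise, 67% of genes shifted by 1 log2 unit and 93% of those shifted by 2 were called. Of 167 calls there, 7 were false. Smaller shifts, such as the differences of the members, and differences between arrays that vary with brightness were not simulated. Members and lists were chosen with earlier results of these data known. Named from the other lists were the 4 genes with the smallest unadjusted p, since none was called. For ABCB1 and ABCC5, the members with the highest and the lowest difference, the 3 nearest profiles were named. Cell type markers were named outside this rule. Alternatives tried were a block by replicate number, a signal filter, quantile normalization, cyclic loess, array medians subtracted, the mean of probe sets, a variance trend with robust fitting, array weights and each array left out. Figures were drawn with matplotlib 3.10.9.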

Additional observations from a re-analysis of the deposited data

How the results depend on the processing

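No alternative called a member: their count past the threshold was 0 in limma in all 14 alternatives, and ABCC5 alone was under an unadjusted p of 0.05 in any of them (10 of 14). Its adjusted p ran from 0.0917 to 0.928. Of 110 alternatives for single members 104 kept the direction and 6 reversed it: ABCC1 with array medians subtracted (−0.0096) and without knockdown-labelled replicate 3 (−0.022; without any other array it lay between 0.0025 and 0.088), and ABCC2 and ABCC3 after quantile normalization (0.085 and 0.13) and cyclic loess (0.12 and 0.16). The replicate block, the signal filter, the mean of probe sets and the variance trend with robust fitting could not change a member's difference. Each member had 1 probe set, and the difference there equalled that of the main fit. Their share of the 104 was thus fixed in advance. The median of the members was −0.029 with quantile normalization and −0.0099 with cyclic loess, and ran from −0.21 to −0.088 with each array left out. The cause was not tested. A filter at the median signal left out ABCB1 and ABCG2.

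The 6 genes called over all genes became 3 with the replicate block, 16 with that filter, 3 with the mean of probe sets, 191 with array weights, and 0 after quantile normalization or cyclic loess in limma (1495 and 1506 at an unadjusted p under 0.05). With each array left out the count ran from 0 to 9. Calls among the conjugation enzymes went from 0 to 2 with array weights. Deviations of same-numbered arrays from their group means correlated at −0.31, −0.02 and 0.07 for replicates 1, 2 and 3. For arrays with unlike numbers the correlations ran from −0.39 to 0.37. With 3 arrays in each group the deviations constrain each other. These values therefore cannot tell whether same-numbered arrays shared an experiment. With the replicate number as a block, ABCC5 had an adjusted p of 0.513, and no member was called.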
